A study of Mus musculus with 10 samples.

Results

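The Achilles tendon transcriptome of the floxed-only control mice was described from 4 of the 10 RNA libraries of the series, those of genotype Mkx flox/+ with no Cre. The product of Mkx, Mohawk, is a homeodomain protein that tendon cells need to build their matrix, and a floxed allele is one flanked by recombination sites, which stays whole when no recombinase is present. All 10 libraries, these included, came from mice given tamoxifen at 20 mg/kg at 6 weeks of age, and the tendons were taken 4 weeks later. The remaining groups, Mkx-CreER/+ with 3 libraries and Mkx-CreER/flox with 3 libraries, were not used here, and no genotypes were compared. Genes were ranked by mean CPM, the gene's count divided by all counts of the library and multiplied by 1000000. The labels write the genotype as Mkx flox/+ in one field and the group as Mkx-flox in another. The 4 libraries are numbered replicates in the labels, which do not say whether each came from its own animal, so every spread given below is that between these libraries.

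Tendon is a tissue of densely packed collagen fibrils with few cells. Its fibroblasts, the tenocytes, secrete type I procollagen, which is assembled from alpha-1 and alpha-2 chains, modified and folded in the endoplasmic reticulum, cleaved outside the cell and cross-linked into fibrils. Small leucine-rich proteoglycans bind to the fibrils and limit their width, glycoproteins such as thrombospondins and cartilage oligomeric matrix protein bridge fibrils and cells, and lubricin, encoded by Prg4, coats the gliding surface. The Achilles tendon continues into calf muscle, so a dissected piece can hold muscle fibres, fat, vessels and nerve beside the tenocytes. Libraries were made with RamDA-seq, a kit that primes total RNA along its length rather than only at the poly(A) tail.

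The libraries held 10357421, 8680934, 17792482 and 9044459 counts, in the order of libraries 1 to 4, so 3 counts correspond to 0.290, 0.346, 0.169 and 0.332 CPM. Of the 32285 genes in the table, 14517 had a mean CPM of at least 1, 16792 were above 0 in all 4 libraries and 10052 were at 0 in all 4. Across the 14517 genes, Spearman's rho of log2(CPM + 1) between pairs of libraries ran from 0.963 for libraries 2 and 4 to 0.972 for libraries 3 and 4; these are correlations across genes, which are not independent replicates. The counts of every pair differed by more than sampling noise, with a chi-square per degree of freedom of 22 to 66.5, so no library was a copy of another.

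Genes for extracellular matrix led the ranking. The 10 most abundant genes took 18.4 ± 2.44% of all counts (SD, n = 4), the 30 most abundant 28.1 ± 1.87% and the 100 most abundant 37.8 ± 1.70%. In each library 50% of the counts fell on 384, 397, 388 and 282 genes in libraries 1 to 4, so library 4 was the most concentrated. Protein-coding genes took 95.6 ± 0.183% of counts, long noncoding RNA genes 2.29 ± 0.178% and mitochondrially encoded genes 2.07 ± 0.174%. Of the 10 genes with the highest mean, 7 were among the 10 highest of every single library, as were 23 of 30 and 72 of 100.

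**Figure D1:**
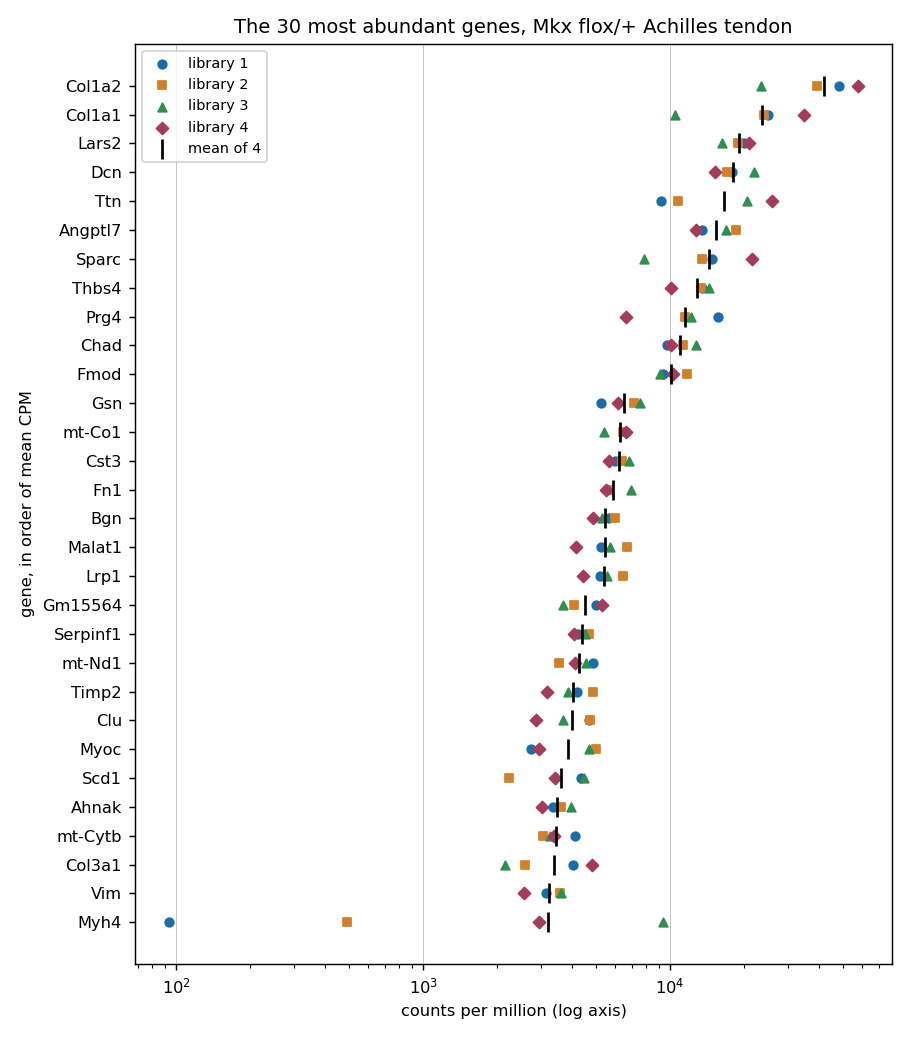
CPM (log axis) of the 30 genes with the highest mean CPM, 1 row per gene, with a symbol for each of the 4 Mkx flox/+ libraries and a black bar for their mean. In most rows the libraries lie close together, while Myh4 runs from 93.7 to 9323 CPM.

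Counts grow with transcript length, so levels of different genes were compared in TPM, counts per kb of annotated exon scaled to the same total in each library. The order by TPM depends on the length used. With the exons of all transcripts of a gene joined, which is the length used for TPM here, the highest gene was Angptl7, an angiopoietin-like secreted protein, at 27184 ± 4912 TPM (SD, n = 4), followed by Chad, which encodes chondroadherin, a leucine-rich matrix protein that binds collagen and integrins, at 24842 ± 2678 TPM. Gm15564, a noncoding gene model treated below with Lars2, came next at 21024 ± 3903 TPM, and Cst3, the secreted protease inhibitor cystatin C, followed at 18603 ± 1197 TPM. With the length of the longest transcript instead, Gm15564 ranked 1, Col1a2 2, Cst3 3, Angptl7 4 and Chad 5. Ttn, the gene of the giant sarcomere protein titin, ranked 5 by CPM and 196 by TPM, or 244 with the longest transcript. Of the 30 genes leading by CPM, 20 were also among the 30 leading by TPM. Genes that entered only by TPM included S100a4, a calcium-binding protein of fibroblasts, at 7383 ± 1386 TPM, Clec3a, a cartilage and tendon lectin, at 5569 ± 579 TPM, and the translation factor Eef1a1 at 4046 ± 665 TPM.

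The 2 chains of type I collagen were the genes with most counts. Col1a2 had 48131, 39477, 23415 and 57671 CPM in libraries 1 to 4, a mean of 42173 ± 14547 CPM (SD, n = 4), and Col1a1 had 24948, 23928, 10487 and 34823 CPM, a mean of 23547 ± 9997 CPM. Library 4 was the highest and library 3 the lowest for both chains, with a coefficient of variation (CV, the SD as a percent of the mean) of 34.5% for Col1a2 and 42.5% for Col1a1. Within each library the ratio of the chains was steadier than either level. Per kb of exon the ratio of Col1a1 to Col1a2 was 0.981, 1.15, 0.848 and 1.14, a mean of 1.03 ± 0.144 with a CV of 14%. The absolute ratio rests on the length assumed, since with the longest annotated transcript of each gene in place of all exons it was 0.491 ± 0.0686.

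Collagen genes as a class held 7.70 ± 2.67% of counts (8.59, 7.24, 4.29 and 10.7% in libraries 1 to 4), and 35 of 44 collagen chain genes had a mean CPM of at least 1. Col3a1, the fibrillar collagen of thin, pliable fibrils, had 4037, 2596, 2139 and 4843 CPM, and per kb of exon its level was 0.103 ± 0.0269 of that of Col1a1, or 0.163 ± 0.0428 with the longest transcripts. Col12a1, a collagen that sits on fibril surfaces, had 2705, 1839, 2364 and 2627 CPM and was not lowest in library 3. Among the chains of type VI collagen, which forms beaded filaments around cells, Col6a1 was at 1012 ± 253 TPM, Col6a2 at 356 ± 61.9 TPM and Col6a3 at 261 ± 77.7 TPM. The ratio of Col6a1 to Col6a2 was 2.83 ± 0.356 over all exons and 1.78 ± 0.224 with the longest transcripts. Of the type V chains, which nucleate type I fibrils, Col5a2 was at 277 ± 63.2 TPM and Col5a1 at 175 ± 50.4 TPM. Col11a1, better known from cartilage, reached 371 ± 103 CPM, while Col2a1, the main collagen of cartilage, stood at 13.5 ± 3.22 CPM. Col9a1 and Col9a2, which decorate the fibrils of cartilage, averaged 0.269 and 0.111 CPM, and each was at 0 in 2 of the 4 libraries.

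The order of the libraries in Col1a1, library 4 above 1 above 2 above 3, recurred in 9 of the 35 collagens with a mean CPM of at least 1, which is 25.7%, against 368 of 14517 genes of all kinds (2.53%). The order was picked after the values of Col1a1 were seen, so the count is a description. The 9 were Col1a2, Col1a1, Col3a1, Col6a1, Col6a2, Col5a1, Col15a1, Col4a2 and Col6a5. Col1a1, which set the order, is counted among the 9 and could not fail to have it. The order was not particular to collagens, since it also held in 4 of 18 endothelial genes (22.2%) and 8 of 42 skeletal muscle genes (19.0%). It held in 4 of 77 other tendon matrix genes (5.19%) and in 0 of 13 small leucine-rich proteoglycans. Library 4 was the highest for 22 of 35 collagens, where it was the highest for 16.9% of all 14517 genes. Scaled by trimmed mean of M values (TMM), which lowers the influence of a few very abundant genes, it was the highest for 27 of 35 collagens and 25.6% of all genes.

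Sparc, the collagen-binding glycoprotein osteonectin, ran with these collagens, at 14747, 13473, 7877 and 21424 CPM, a mean of 14380 ± 5563 CPM (SD, n = 4). The other leading matrix glycoproteins did not have that order. Thbs4, thrombospondin-4, had 13440, 13402, 14312 and 10126 CPM, and library 4 was the lowest. Comp, which encodes cartilage oligomeric matrix protein, had 2931, 4092, 3107 and 1607 CPM, again lowest in library 4. Per kb of exon Thbs4 stood at 4.23 ± 1.12 times the level of Comp, so of these related pentamer-forming proteins Thbs4 had the higher transcript level in each library.

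Prg4, the gene of lubricin, had 15626, 11451, 12204 and 6612 CPM, and its mean of 11473 ± 3715 CPM had a CV of 32.4%. Angptl7 had 13516, 18570, 16786 and 12767 CPM, a mean of 15410 ± 2736 CPM. Fn1, fibronectin, had 5540, 5648, 6919 and 5481 CPM, with library 3 above a close group of 3. The list of 78 noncollagenous tendon matrix genes, which holds Sparc, Thbs4, Comp, Prg4, Angptl7 and Fn1, took 9.86 ± 0.528% of counts and 21 of the 100 top places. Its summed share varied less between libraries than that of collagens, with a CV of 5.35% against 34.7%. Gene by gene the difference was smaller, with a median CV of 19.1% in this list and 27.0% in collagens. Other members with more than 1000 CPM on average included the thrombospondins Thbs1 (3065 ± 600 CPM) and Thbs2 (2978 ± 550 CPM), Abi3bp (1472 ± 191 CPM), the growth factor-binding protein gene Igfbp5 (1323 ± 46.2 CPM), Tnxb, which encodes tenascin-X (1261 ± 144 CPM), the cartilage intermediate layer protein gene Cilp (1249 ± 183 CPM), osteopontin, Spp1 (1222 ± 223 CPM), and the microfibril gene Fbn1 (1188 ± 314 CPM).

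Small leucine-rich proteoglycans took 4.88 ± 0.448% of counts, and 6 of the 16 listed genes were in the top 100. Dcn, decorin, had 17821, 17050, 21865 and 15148 CPM, with library 3 the highest and library 4 the lowest, where Col1a1 had them the other way round. Fmod, fibromodulin, had 9344, 11737, 9077 and 10272 CPM. Per kb of exon Fmod and Dcn were at similar levels, with a ratio of 1.02 ± 0.232 (SD, n = 4), while biglycan, Bgn, was at 0.295 ± 0.0446 of Dcn, or 0.542 ± 0.0820 with the longest transcripts. Chad had 9726, 11289, 12792 and 10127 CPM, and its CV of 12.5% was well under that of the type I collagen chains. Prelp, with 9.68% of its exon length under opposite-strand exons, reached 1710 ± 355 CPM, Ogn, osteoglycin, 878 ± 174 CPM, and Kera, keratocan, 503 ± 125 CPM. Lum, lumican, stood at 309 ± 98.7 CPM and Aspn, asporin, at 111 ± 19.5 CPM. Epyc, Podnl1 and Nyx were below 1 CPM.

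Of 24 listed tendon transcription factors and cell markers, 23 had a mean CPM of at least 1. Tnmd, tenomodulin, a membrane protein of mature tenocytes, had 579, 430, 336 and 536 CPM, a mean of 470 ± 110 CPM (SD, n = 4). Scx, scleraxis, the transcription factor that specifies tendon progenitors, had 53.3, 20.9, 21.3 and 49.1 CPM, so libraries 1 and 4 stood more than 2-fold above libraries 2 and 3. Mkx itself, intact in these mice, had 186, 180, 120 and 141 CPM, a mean of 157 ± 31.6 CPM. Wif1, a secreted Wnt inhibitor, was at 270 ± 55.9 CPM and Six2 at 0.550 ± 0.762 CPM, of which 1.69 CPM came from library 3. Tnmd, Scx and Mkx were thus detected in every library, with Scx the lowest of the 3 by CPM.

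The enzymes and chaperones that fold, hydroxylate, trim and cross-link collagen took 0.908 ± 0.0746% of counts in 40 genes. Lox, lysyl oxidase, which starts cross-linking, was the most abundant by CPM with 1797, 2668, 1753 and 1621 CPM. Fkbp9, an endoplasmic reticulum prolyl isomerase, had a mean of 948 ± 156 CPM, and Adamts2, the N-propeptide proteinase, 920 ± 166 CPM. P4ha1, the catalytic subunit of prolyl 4-hydroxylase, had 755, 302, 454 and 680 CPM, and its partner P4hb had 392, 292, 424 and 400 CPM. Library 2 was the lowest for 25 of the 40 genes and for 21.9% of all genes, and with TMM scaling for 26 of the 40 and 28.4% of all genes. Library 3, which was the lowest in type I collagen, was the lowest for 9 of the 40 (22.5%), near its 20.2% of all genes.

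Upstream sequence from RefSeq (GRCm38.p6) was matched to 69 of the 100 most abundant genes, with 82 start sites in all. The 6 letters TATAAA on the coding strand, from 40 to 21 bases before the start, were found in 6 of the 82 windows (7.32%), against 159 of 14042 windows (1.13%) of genes with a mean CPM of at least 1 and 1.87% of all windows in the table. The 6 genes were Chad, Myh1, Myh4, Myoc, S100a4 and Vim. The letters GGGCGG, on either strand within 200 bases before the start, were in 48.8% of windows of the top 100 and 52.4% of those of genes with a mean CPM of at least 1, and CCAAT was in 32.9% and 30.7%. These 3 motifs were the ones searched, and a match describes the letters only. The 100 bases before the start are shown for 3 genes with the motif, in capitals, and for 3 of the most abundant genes without it; no annotated exon of GENCODE vM21 lies in them, that of Chad lies within the span of Acsf2 and that of Angptl7 within the span of Mtor. They are chr11:94564947-94565046 on the plus strand for Chad, chr1:162639050-162639149 plus for Myoc, chr11:67237712-67237811 plus for Myh4, chr4:148500463-148500562 minus for Angptl7, chr1:134037154-134037253 plus for Fmod and chr13:92794819-92794918 minus for Thbs4.
Chad: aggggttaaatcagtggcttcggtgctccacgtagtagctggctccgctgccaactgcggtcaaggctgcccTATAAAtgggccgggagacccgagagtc
Myoc: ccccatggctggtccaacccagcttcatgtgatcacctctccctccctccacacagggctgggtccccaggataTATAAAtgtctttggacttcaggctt
Myh4: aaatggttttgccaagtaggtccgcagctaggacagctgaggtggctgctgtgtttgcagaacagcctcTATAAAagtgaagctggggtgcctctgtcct
Angptl7: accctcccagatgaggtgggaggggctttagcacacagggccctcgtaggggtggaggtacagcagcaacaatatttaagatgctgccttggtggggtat
Fmod: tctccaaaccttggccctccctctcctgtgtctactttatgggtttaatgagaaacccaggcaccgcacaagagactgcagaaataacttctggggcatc
Thbs4: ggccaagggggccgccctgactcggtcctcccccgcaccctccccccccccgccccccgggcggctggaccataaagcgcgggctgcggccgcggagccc
The first T of the motif lay 28 bases before the start in Chad, 26 in Myoc and 31 in Myh4.

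**Figure D2:**
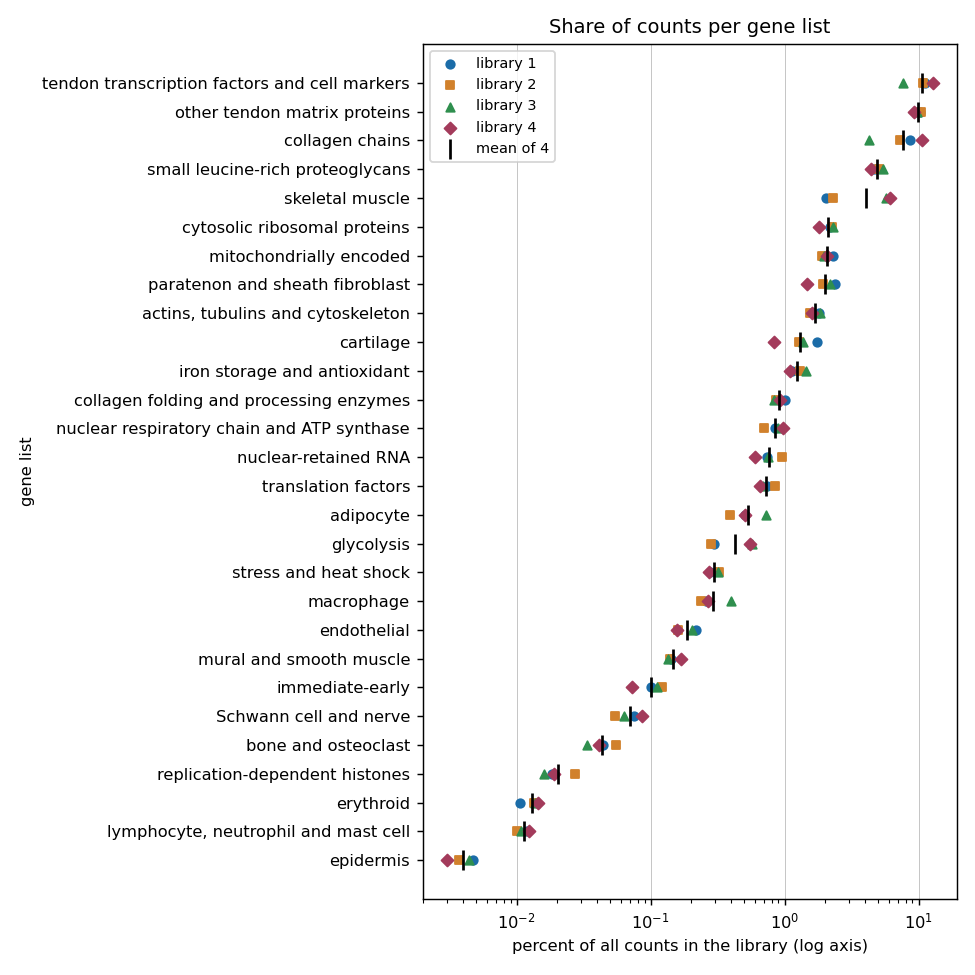
Percent of all counts (log axis) in each of 28 gene lists, with a symbol per library and a black bar for the mean of 4. Some genes stand in more than 1 list, so shares do not add up. Skeletal muscle runs from 2.04 to 6.13% and collagen chains from 4.29 to 10.7%.

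Skeletal muscle transcripts were the main contribution from another tissue and the main source of large spread among abundant genes. The 42 muscle genes together took 2.04, 2.31, 5.71 and 6.13% of counts in libraries 1 to 4, a mean of 4.05 ± 2.17% (SD, n = 4), and all 42 had a mean CPM of at least 1. None was highest in library 1 or 2, where 26.2 and 32.3% of all genes were. Ttn had 9207, 10781, 20514 and 25887 CPM, and Neb, the thin-filament ruler nebulin, had 1545, 1709, 3679 and 3817 CPM. Acta1, skeletal muscle actin, had 1177, 1372, 3385 and 6008 CPM. Libraries 3 and 4 lay above libraries 1 and 2 in each of the 3 genes. In bulk samples like these, more muscle fibres and more RNA per fibre cannot be told apart.

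Libraries 3 and 4 differed in which muscle genes were high. Myh4, the fast IIb myosin heavy chain, had 93.7, 491, 9323 and 2934 CPM, a 99.4-fold range, and without library 3 its mean of 3210 CPM was 1173 CPM. Pvalb, the calcium buffer parvalbumin of fast fibres, had 61.0, 115, 1655 and 477 CPM, and Actn3, fast-fibre alpha-actinin, had 62.7, 146, 1235 and 598 CPM. Slow-fibre genes were low in library 3, where these fast-fibre genes were highest. Myh7, the slow myosin heavy chain, had 300, 378, 103 and 1084 CPM, and Myl3, the slow myosin light chain, had 330, 379, 43.4 and 918 CPM. Both were highest in library 4 and lowest in library 3. Of the counts of the adult myosin genes Myh1, Myh2, Myh4 and Myh7, Myh4 took 4.50, 19.5, 91.6 and 41.1%, Myh1 50.2, 40.2, 4.90 and 26.3%, and Myh7 14.4, 15.0, 1.02 and 15.2%.

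Sets of 13 fast-fibre and 8 slow-fibre genes, drawn up after these values were seen, describe the same division. The fast set took 0.388, 0.454, 2.19 and 1.37% of counts and was highest in library 3 in 11 of 13 genes (all genes, 24.6%). The slow set took 0.170, 0.178, 0.0530 and 0.430%. It was highest in library 4 and lowest in library 3 in 8 of 8 genes (all genes, 16.9 and 20.2%). The fast set includes Myh1 and Myh2, of fibre types IIx and IIa, which were highest in library 4. Tnnc2, fast troponin C, stood at 4.47 ± 3.64 CPM although its partners Tnni2 and Tnnt3 were at 712 ± 416 and 659 ± 428 CPM. Exons of genes on the opposite strand overlap 74.0% of the exon length of Tnnc2, and whether the counting used strand is not stated in the labels. The part of this overlap in the value of Tnnc2 was not tested. Smaller opposite-strand overlaps of exon length touch Atp2a1 (21.9%), Ckm (15.5%) and Myh7 (13.3%).

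**Figure D3:**
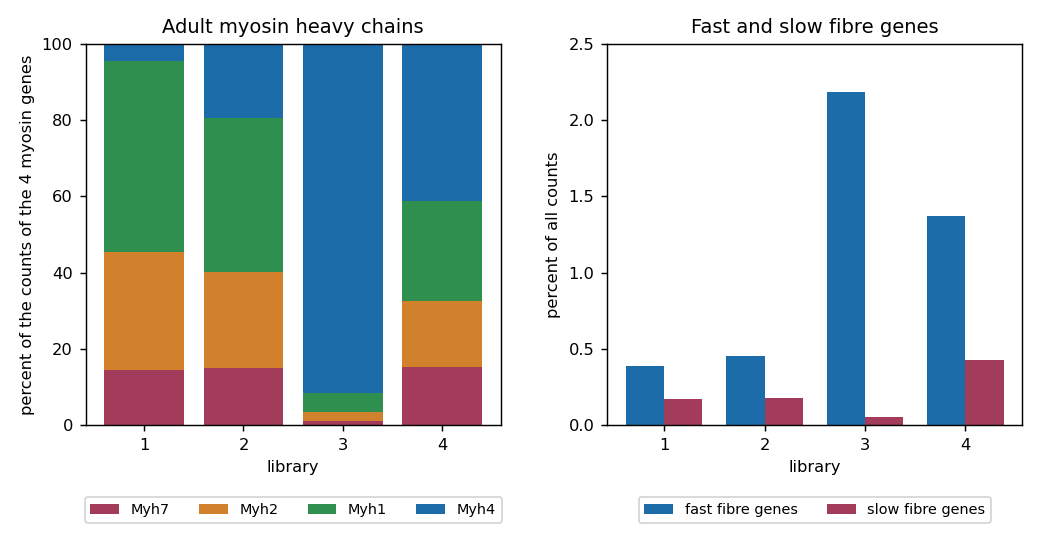
Left, percent of the summed counts of Myh1, Myh2, Myh4 and Myh7 that fell on each gene in libraries 1 to 4; right, percent of all counts in 13 fast-fibre and 8 slow-fibre genes per library, bars from 0. Myh4 fills 91.6% of the left bar of library 3, where the slow-fibre bar is at its lowest, 0.0530%.

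The summed share of glycolysis genes was higher in libraries 3 and 4. The 16 listed genes took 0.299, 0.282, 0.576 and 0.552% of counts. Aldoa, the aldolase abundant in muscle, had 633, 695, 2143 and 1742 CPM, Gapdh 334, 360, 686 and 844 CPM, and Ldha 513, 347, 785 and 873 CPM. By gene the picture was mixed, with 6 of 16 highest in library 3, 6 in library 4, 3 in library 1 and 1 in library 2, where all genes had 24.6, 16.9, 26.2 and 32.3%. Of the 16, 4 were lowest in library 4 (25%) and 2 in library 3 (12.5%), where all genes had 36.5 and 20.2%. The muscle list had 2.04, 2.31, 5.71 and 6.13% in the same libraries, and its part in the glycolysis share was not tested.

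Markers of other resident cells were present at lower shares. The macrophage list took 0.291 ± 0.0708% of counts, and all 26 genes had a mean CPM of at least 1; library 3 was the highest for 23 of 26, where it was the highest for 24.6% of all genes, and for 24 of 26 with TMM scaling. Lyz2, the lysozyme of myeloid cells, had 851, 718, 1208 and 868 CPM, Csf1r, the receptor that macrophages need to survive, 227, 270, 345 and 282 CPM, and Mrc1, a scavenger receptor of tissue macrophages, 211, 186, 306 and 193 CPM. Library 3 was the highest in each of these. Opposite-strand exons overlap 15.1% of the exon length of Csf1r.

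Adipocyte genes took 0.535 ± 0.143% of counts and were highest in library 3 in 9 of 12, where 24.6% of all genes were. Adipoq, the fat hormone adiponectin, had 367, 266, 447 and 247 CPM, and Cfd, adipsin, had 850, 817, 1592 and 834 CPM. Ucp1, the mark of brown fat, had no count in any library, which allows up to 0.346 CPM in the shallowest. Car3, which muscle also expresses, had 1863, 1362, 3152 and 2492 CPM.

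Endothelial genes took 0.220, 0.161, 0.204 and 0.158% of counts in libraries 1 to 4, a mean of 0.186 ± 0.0310%. The most abundant were Fabp4 (1018, 663, 912 and 464 CPM), also in the adipocyte list, and Cd36 (577, 346, 480 and 366 CPM). Their part in the share was not tested. The share was lowest in library 4, but library 4 was the highest for 10 of 18 genes (all genes, 16.9%). With TMM scaling it was the highest for 12 of 18 (all genes, 25.6%). Pecam1 was at 132 ± 20.0 CPM and Cdh5, vascular cadherin, at 66.3 ± 7.95 CPM. The mural and smooth muscle list took 0.146 ± 0.0149%. Acta2, smooth muscle actin, had 260, 182, 179 and 244 CPM and Rgs5, a pericyte gene, 161 ± 28.6 CPM. Tagln and Cnn1, which smooth muscle cells also express, averaged 0.890 and 0.697 CPM. Opposite-strand exons overlap 67.9% of the exon length of Tagln and none of that of Cnn1.

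Nerve and glial markers were uneven. Mbp, a myelin gene, had 25.7, 23.2, 25.4 and 60.6 CPM, highest in library 4. Sox10, the glial transcription factor, was at 1.36 ± 0.608 CPM. The Schwann cell and nerve list as a whole took 0.0755, 0.0542, 0.0632 and 0.0865% of counts. Most of this came from Pmp22, at 618, 443, 491 and 642 CPM, a mean of 0.0548% of counts against 0.0699% for the list. Library 4 was the highest for 9 of the list's 13 genes above the minimum (all genes, 16.9%, or 25.6% with TMM scaling).

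Several cell types had little or no signal. The epidermal keratins Krt5, Krt14 and Krt15 and the cornified-layer gene Flg were at 0 in all 4 libraries, and the whole epidermis list took 0.00397 ± 0.000767% of counts, most of it from Krtdap (13 ± 5.92 CPM) and Sbsn (11.4 ± 4.58 CPM). The B cell gene Ms4a1 was at 0 and the T cell gene Cd3e averaged 0.340 CPM, while Ptprc, which marks all leukocytes, was at 38.9 ± 9.12 CPM. Hbb-bs, a globin of red cells, was at 73.8 ± 13.3 CPM and the erythroid list took 0.0130 ± 0.00170%. Of bone genes, Sost was at 0, Bglap averaged 0.143 CPM and Sp7 0.0965 CPM, whereas Ibsp, bone sialoprotein, had 166, 307, 142 and 108 CPM and Ctsk, cathepsin K, averaged 209.7 ± 51.4 CPM. Acan, aggrecan, was at 70.6 ± 20.8 CPM and Sox9 at 16.5 ± 2.70 CPM.

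Of the 13 protein-coding genes of mitochondrial DNA, 6 were among the 100 most abundant genes and 6 had almost no counts. mt-Co1, a subunit of cytochrome c oxidase, had 6620, 6422, 5397 and 6608 CPM, mt-Nd1 4892, 3563, 4565 and 4135 CPM, and mt-Cytb, cytochrome b, 4121, 3054, 3278 and 3387 CPM. The 6 adjacent genes from mt-Co2 to mt-Nd4l, at 7013 to 10173 of the mitochondrial genome in mm10, had 88, 40, 119 and 33 counts in libraries 1 to 4, or 280 in all, against 944682 in the other 7. Within that stretch mt-Atp8 and mt-Nd4l were at 0 throughout. The genes on either side had far more counts, with mt-Co1 at a mean of 6262 ± 583 CPM and mt-Nd4 at 2337 ± 103 CPM. The labels do not state how the counting treated reads that map to more than 1 place, and the cause of the gap was not tested. The mitochondrial share of 2.07% of counts therefore rests on 7 genes.

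**Figure D4:**
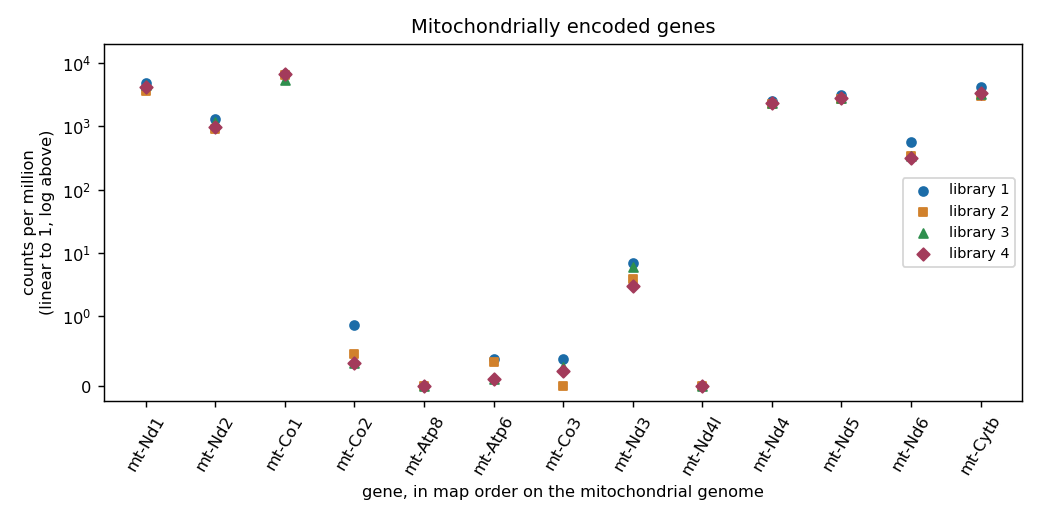
CPM of the 13 mitochondrial protein-coding genes in map order (axis linear up to 1 and logarithmic above), with a symbol per library. The 6 genes from mt-Co2 to mt-Nd4l lie at or below 6.85 CPM in every library, and their neighbours mt-Co1 and mt-Nd4 lie above 2000 CPM.

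Among the leading entries, Gm42418 matched an annotated ribosomal RNA, and Lars2 and Gm15564 shared a short stretch with each other. Lars2, annotated as the mitochondrial leucyl-tRNA synthetase, ranked 3 with 19969, 18782, 16255 and 20917 CPM, and Gm15564 ranked 19 with 5030, 4088, 3674 and 5313 CPM. Their transcripts share 72 bases at 98.6% identity. Gm42418, at 1333 ± 367 CPM, overlaps the RefSeq gene Rn18s-rs5 by 1245 bases and matched an annotated ribosomal RNA over 1244 bases at 100% identity. Together with Gm26917 these entries took 2.75, 2.57, 2.35 and 2.93% of counts. No match of at least 50 bases at 90% was found between Lars2, Gm15564 or Gm26917 and the annotated ribosomal RNAs, a set without a full 28S sequence. Whether all reads counted to Lars2 and Gm15564 came from these genes was not tested.

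By counts, genes of the general machinery took smaller shares than the matrix genes, an order that did not hold for collagens by TPM. The 87 cytosolic ribosomal protein genes took 2.18, 2.25, 2.29 and 1.79% of counts, and library 4 was the lowest for 71 of the 85 above the minimum, where it was the lowest for 36.5% of all genes. With TMM scaling library 4 was the lowest for 55 of 85 and 25.3% of all genes. Rplp0 was at 864 ± 44.5 CPM and Rps12 at 808 ± 39.1 CPM. Ribosomal protein genes, like Actb, Gapdh, Eef1a1 and the globins, have near-identical copies in the genome, so their counts are uncertain where reads could not be placed. On the TPM scale the ribosomal proteins, most of them short, took 5.02 ± 0.505%, above the collagen chains at 3.16 ± 1.18%. The nuclear-encoded subunits of the respiratory chain and ATP synthase took 0.848, 0.702, 0.893 and 0.969%, and library 2 was the lowest for 64 of 82 (all genes, 21.9%) and for 68 of 82 with TMM scaling (all genes, 28.4%), with Atp5a1 at 664, 596, 701 and 940 CPM.

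Of the cytoskeletal genes, Vim, the intermediate filament of fibroblasts, had 3156, 3596, 3627 and 2571 CPM and Ahnak, a giant scaffold protein, 3355, 3609, 3968 and 3017 CPM. Actb, cytoplasmic actin, had 1760, 876, 1584 and 2022 CPM, a CV of 31.4%. Library 2 was the lowest for 24 of the 32 cytoskeletal genes and 21.9% of all genes, and for 26 of 32 and 28.4% with TMM scaling. Gsn, gelsolin, an actin-severing protein that also circulates in plasma, had 5244, 7143, 7522 and 6135 CPM. Fth1, ferritin heavy chain, had 2307, 1971, 2078 and 1236 CPM.

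Secreted and membrane proteins outside the matrix lists also stood among the first 30. Cst3 had 5967, 6372, 6790 and 5651 CPM with a CV of 7.98%, and Serpinf1, pigment epithelium-derived factor, had 4236, 4707, 4509 and 4097 CPM with a CV of 6.23%. Clu, the extracellular chaperone clusterin, had 4700, 4755, 3694 and 2866 CPM. Myoc, myocilin, had 2735, 5019, 4715 and 2936 CPM, and Lrp1, an endocytic receptor, 5208, 6446, 5535 and 4449 CPM. Scd1, the fatty acid desaturase, had 4366, 2222, 4479 and 3433 CPM, lowest in library 2. Among nuclear RNAs, Malat1 had 5233, 6689, 5687 and 4166 CPM and Neat1, the scaffold of paraspeckles, 1514, 2351, 1248 and 1202 CPM, both highest in library 2 and lowest in library 4.

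Immediate-early genes, which respond within minutes to stress or handling, took 0.101 ± 0.0210% of counts. Library 2 was the highest for 17 of 25, where it was the highest for 32.3% of all genes, and with TMM scaling for 17 of 25 and 25.8%. Dusp1, a phosphatase induced by stress, had 77.2, 158, 109 and 84.4 CPM, and Klf6 had 126, 209, 165 and 94.0 CPM. Egr1, a mechanically induced factor of tendon, had 49.7, 38.6, 47.3 and 23.0 CPM and was not highest in library 2.

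The spread between the libraries was far above counting error for abundant genes. Over the 14517 genes with a mean CPM of at least 1 the median CV was 20.7%, and the median biological coefficient of variation from edgeR, which leaves counting error out, was 22.3%. For the 100 most abundant genes the median CV was 18.3% (interquartile range 11.8 to 30.01%), where counting error alone gives 0.807%. The median was 13.7% for the lower 500 of the top 1000 genes and 35.1% for genes ranked after 10000. Counting error in that last class was 17.5%. A CV over 50% was found in 9% of the top 100, in 1.2% of the lower 500 of the top 1000 and in 24.4% of the last class.

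**Figure D5:**
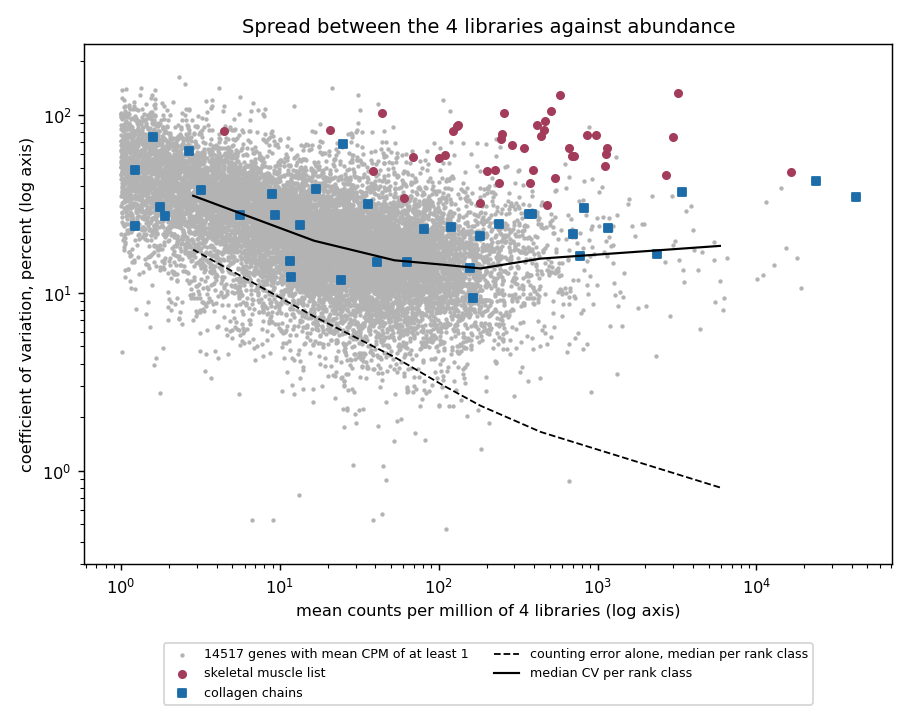
CV between the 4 libraries against mean CPM (both axes logarithmic) for 14517 genes, with the muscle list and collagen chains marked, the median CV per rank class (solid line) and the CV that counting error alone gives (dashed line). All 42 genes of the muscle list lie above the median CV of their rank class.

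Among the 500 most abundant genes 27 had a CV over 50%, and 21 of these were in the muscle list. The other 6 were Aldoa, Atp2a2, Galnt15, Fasn, Glul and Runx1; those past the 10 of largest spread are named because the count is small, after their values were seen. Atp2a2, the slow-fibre and housekeeping calcium pump, had 566, 582, 274 and 1069 CPM, the same order as Myh7. Galnt15, a glycosyltransferase that starts O-linked sugar chains, had 386, 1957, 848 and 337 CPM, and without library 2 its mean of 882 CPM was 524 CPM. Runx1, a transcription factor, had 137, 477, 219 and 137 CPM, also highest in library 2. Fasn, fatty acid synthase, had 439, 98.1, 268 and 271 CPM, lowest in library 2.

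The steadiest of the 500 were genes of general cell function and some matrix genes. Map4, a microtubule-associated protein, had 656, 660, 670 and 663 CPM, a CV of 0.877%. Tns3, a focal adhesion protein, had a CV of 2.63%, the lysosomal protease Ctsb 2.78%, the ubiquitin ligases Birc6 and Mycbp2 3.20 and 3.33%, Igfbp5 3.49%, the matrix protein Spon1 3.59%, the splicing factor Prpf8 3.84%, mt-Nd4 4.41% and the receptor Tgfbr2 4.52%. With 4 libraries a CV this small is itself uncertain, and the order among these genes is not a ranking of stability.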

How the data were processed

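Total RNA from Achilles tendon was made into RamDA-seq libraries and sequenced, per the labels' protocols and the series' design text. The submitters' processing notes name fastp, STAR and mm10. The authors deposited 1 table of raw counts per gene for the whole series. The counting tool, its strand setting and its treatment of multi-mapping reads are named in none of these sources.

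The 4 Mkx flox/+ columns were read by their names and the other groups' columns were left out. Counts were divided by the column total (8680934 to 17792482) and scaled to CPM. TPM used the union of exons per gene in GENCODE vM21 (32235 of 32285 genes had a length), and 32158 genes had a symbol. Dispersion was estimated with edgeR 4.0.16 (R 4.3.3, TMM, intercept only) on genes with a mean CPM of at least 1, and was tested on simulated data. Transcripts were compared with BLAST 2.17.0. Other steps ran in Python 3.11.15 with pandas 2.3.3.

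With 1 group no test was made, and intervals are SDs over 4 libraries. Named genes were the 30 of highest mean CPM, the next 10 by TPM, up to 5 members per list by mean CPM, markers at or near 0, and the 10 of largest and of smallest CV among the top 500; others were chosen after their values were seen. This holds for collagen chains, proteoglycans, matrix and tendon markers past the first 5 of their list and for the muscle genes printed beside the fibre sets. The rule, the lists and the fibre sets were chosen with earlier results of these data known. The encoded amino acid composition was planned and not analysed here. Some items named by the rule are not reported here.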

Additional observations from a re-analysis of the deposited data

Results flagged for a closer look

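In groups of 4, 1 library was called far from the others when its gap to the nearest took up more of the range than Dixon's 95% critical value. Of 238 results checked (28 list shares, 178 genes, and 32 ratios, sets and shares), 20 met this. Chance alone marks about 1 in 20 groups. Genes were checked on CPM without TMM scaling, whose factors were 1.01, 1.05, 1.01 and 0.937 for libraries 1 to 4. Whether each mark holds with TMM scaling was not tested. Socs2, Cish and Per2 had been picked because 1 library stood apart, so their marks are no surprise.

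Library 4 stood apart in how concentrated its counts were. Its top 100 genes held 40.4% of counts (36.7 to 37.2% in the others), its top 500 held 55.7% (52.3 to 52.7%) and its top 1000 held 64.2% (61.4 to 61.9%). In it 282 genes held 50% of counts, against 384 to 397. The muscle list held 6.13% and the collagen list 10.7% of counts in library 4, the most of any library; their part in the concentration was not tested. Library 4 also had the highest Mbp (60.6 CPM, others 23.2 to 25.7), the myelin gene, the highest Cma1 (9.29 CPM, others 2.53 to 3.54), a mast cell protease, and the lowest Sptbn1 (1292 CPM, others 1470 to 1487), a spectrin.

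Library 3 had the lowest mt-Co1 (5397 CPM, others 6422 to 6620) and the lowest Myh7 share of adult myosin counts (1.02%, others 14.4 to 15.2%). It had the highest Fn1 (6919 CPM, others 5481 to 5648), Cfd (1592 CPM, others 817 to 850), Sox6 (162 CPM, others 102 to 109) and Acp5 (27.4 CPM, others 15.0 to 16.8). Per2, a clock gene, was also highest there (119.8 CPM, others 69.1 to 73.2).

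Library 2 had the highest Lox (2668 CPM, others 1621 to 1797), Eef2 (1634 CPM, others 1055 to 1105), Mylk (283 CPM, others 181 to 196) and the histone gene Hist1h2bc (24.9 CPM, others 18.8 to 19.3). The cytokine-signalling inhibitors Socs2 (83.3 CPM, others 13.2 to 16.9) and Cish (12.9 CPM, others 0.663 to 1.69) were highest in library 2 as well.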

How the results depend on the processing

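Of the main values under another setting, 82 stayed within 1 SD (counts, within 1.5 times) and 12 moved. On the TPM scale the top 100 genes held 43.8%, collagens 3.16%, small leucine-rich proteoglycans 5.69% and other matrix proteins 11.0%. Ribosomal proteins held 5.02% and mitochondrial genes 6.33%. Collagens then came below the proteoglycans, ribosomal proteins and mitochondrial genes, where by counts they came above all of these. Mitochondrial genes also came above the proteoglycans by TPM. Without muscle, mitochondrial and erythroid genes the top 100 held 36.1% and other matrix proteins 10.5%. With all genes that had any count the median CV was 31.6%. A pseudocount of 0.1 gave a lowest Pearson correlation of 0.950. The longest transcript gave ratios of 0.491 for Col1a1 to Col1a2, below 1 where the main value was 1.03, and 1.78 for Col6a1 to Col6a2. For named values, 240 stayed and 30 moved.

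Of the top 30, 30 stayed with TMM, 30 with size factors by relative log expression, 29 with the median CPM, 25 without muscle, mitochondrial and erythroid genes and 20 by TPM, exactly at the limit of 1.5 times; 28 stayed without Lars2, Gm15564, Gm26917 and Gm42418 and 21 with TPM from the longest transcript, both tried after seeing the data. Leaving out each library in turn, 28 to 29 stayed, the median CV was 18.7 to 20.5%, the collagen share 6.71 to 8.83% and the muscle share 3.35 to 4.72%. No paired analysis was possible because a single group was described. Shares of lists that lose members were not recomputed without those genes. The 3 alternatives for amino acid composition were not run, as no protein sequences were used here. A depth of 8680934 to 17792482 counts limits statements on genes near 0.346 CPM.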

Other observations

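Some genes outside the lists were picked after their values were seen, and their CVs were both above and below the median CV of 20.7%. No time of tissue collection is in the labels. Arntl, which encodes the clock activator BMAL1, had 13.4, 21.4, 6.80 and 8.62 CPM in libraries 1 to 4, and its relative Npas2 had 11.2, 16.4, 1.80 and 5.20 CPM, in the same order. Nr1d1, a repressor of Arntl, had 457, 567, 320 and 414 CPM, also in the same order of libraries as Arntl. Per2 had 73.2, 69.1, 119.8 and 71.3 CPM, and Dbp, a clock output gene, 48.8, 46.1, 50.2 and 60.4 CPM. The CV was 52% for Arntl, 74.7% for Npas2, 23.4% for Nr1d1, 29.2% for Per2 and 12.2% for Dbp.

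Library 2 was the lowest for Fasn (439, 98.1, 268 and 271 CPM) and for Pck1, phosphoenolpyruvate carboxykinase (84.2, 16.4, 99.9 and 47.5 CPM). Elovl6, a fatty acid elongase, had 21.3, 10.4, 16.6 and 16.5 CPM and Acly, ATP citrate lyase, 105, 75.1, 100.2 and 112 CPM, both lowest in library 2. Acaca, acetyl-CoA carboxylase, had 138, 91.9, 106 and 90.4 CPM, lowest in library 4. The adipocyte list was also lowest in library 2 (0.511, 0.388, 0.731 and 0.510% of counts), and its part in these values was not tested. Oxtr, the oxytocin receptor, had 74.5, 94.9, 22.6 and 21.1 CPM, with libraries 1 and 2 above 3 and 4.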
